A study of Mus musculus with 51 samples.

Results

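Interferon-stimulated genes are the antiviral and antimicrobial genes that a cell switches on after interferon binds its receptors. A set of 44 such genes was followed here by gene symbol through both deposited expression tables of a mouse study of CD8+ T cells in AT3-OVA mammary tumors, which are tumors of a mouse breast cancer line that carries ovalbumin. The table of untreated libraries held 42 of the 44 among 10560 genes, with Ifitm3 and Oas1a absent from it, and the table of immune checkpoint blockade libraries held all 44 among 13458 genes.

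Type I interferons act through the receptor pair Ifnar1 and Ifnar2, the kinases Jak1 and Tyk2 and a complex with Stat2 and Irf9 that binds the interferon-stimulated response element (ISRE). Interferon gamma, which CD8+ T cells themselves secrete, acts through Ifngr1 and Ifngr2 on the gamma-activated site (GAS), and its best-known targets are Irf1 and the guanylate-binding proteins. In T cells these genes are often read as a sign of interferon received by the cell, which was not measured here. Irf7 feeds the response back by raising further interferon production.

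The promoters of 34 of the 44 genes were found by symbol in RefSeq (GRCm38.p6), each covering 250 bases before a RefSeq start and 50 after it. The core of the ISRE, searched as GAAA, any 2 bases, GAAA, was present on either strand in 20 of these 34 genes (58.8%) and in 1079 of 27025 genes with a promoter of the same length (3.99%). The GAS, searched as TTC, any 3 bases, GAA, was present in 11 of the 34 (32.4%) and in 9.55% of all genes. A match describes the letters and no binding. Promoters of 5 chosen genes, each with a match, are printed here over the 160 bases before the RefSeq start. They run 5′ to 3′ on the strand of the gene. The ISRE core is in capitals (TTTC, any 2 bases, TTTC where it lies on the other strand). Isg15 holds 3 overlapping matches, Ifit3 holds 2, and Rsad2, Gbp2 and Igtp hold 1 each. The Gbp2 stretch reaches into the gene as GENCODE draws it, since the annotations place its start differently.
Isg15 promoter, chr4:156200819-156200978, minus strand: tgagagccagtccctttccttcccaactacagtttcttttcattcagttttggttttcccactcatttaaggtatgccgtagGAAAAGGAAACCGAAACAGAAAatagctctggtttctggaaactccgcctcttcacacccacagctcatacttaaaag
Ifit3 promoter, chr19:34583369-34583528, plus strand: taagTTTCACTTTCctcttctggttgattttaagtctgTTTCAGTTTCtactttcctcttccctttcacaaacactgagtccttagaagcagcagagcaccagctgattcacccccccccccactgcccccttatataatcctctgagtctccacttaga
Rsad2 promoter, chr12:26456453-26456612, minus strand: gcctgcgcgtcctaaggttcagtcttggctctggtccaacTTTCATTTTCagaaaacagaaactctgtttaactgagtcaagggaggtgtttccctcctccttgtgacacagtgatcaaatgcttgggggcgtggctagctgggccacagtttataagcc
Gbp2 promoter, chr3:142620503-142620662, plus strand: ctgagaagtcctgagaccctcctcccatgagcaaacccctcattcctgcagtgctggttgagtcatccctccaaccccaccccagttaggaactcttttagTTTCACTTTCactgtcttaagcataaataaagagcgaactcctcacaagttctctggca
Igtp promoter, chr11:58199396-58199555, plus strand: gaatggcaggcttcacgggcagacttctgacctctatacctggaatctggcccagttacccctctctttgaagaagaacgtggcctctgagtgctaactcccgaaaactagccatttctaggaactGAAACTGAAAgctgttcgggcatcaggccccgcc
No ISRE core was found in the windows of the other 14 matched genes. These were Ifit2, Ifitm1, Oasl1, Oasl2, Irf1, Irf7, Irf9, Ifi35, Ifi44, Cmpk2, Samhd1, Lgals3bp, Dtx3l and Xaf1. Of these 14, Ifitm1 and Irf9 had windows that lay wholly inside the gene as GENCODE draws it. The bases before the GENCODE start of Ifitm1 and Irf9 were thus not searched. Oas2, Mx1, Dhx58, Zbp1, Usp18, Gbp4, Parp9, Parp14, Rtp4 and Ifi27l2a were not matched.

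RNA came from CD8+ T cells sorted by flow cytometry, and libraries were made with a 3′ end kit (QuantSeq). CD103+CD69+ cells (DP, the phenotype of tissue-resident memory cells), CD103-CD69+ cells (SP) and CD103-CD69- cells (DN) came from untreated tumors at weeks 1, 2, 4 and 6, with 3, 4, 3 and 3 DP libraries, 3, 3, 2 and 3 SP libraries and 2, 3, 3 and 2 DN libraries. Effector memory (EM), central memory (CM) and naive CD8+ cells came from spleens titled as controls, with 3 libraries each. Tumors given immune checkpoint blockade (ICB, agent not named in the labels) gave 3 DP, 3 SP and 2 DN libraries at day 40. The labels give AT3-OVA as the line and tumor-infiltrating cells as the type for the spleen libraries too. They name no mouse strain, sex or age and do not say whether replicates came from separate animals, so p-values measure the spread between these libraries, which may be technical.

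The deposited values are normalised and on a log scale whose base is not stated, so differences are given in log units. Gene means ran from -28.0 to 39.4 in the untreated table, so a value ranks libraries for 1 gene and says nothing of abundance between genes; the count depth is unknown. Both tables hold fewer independent directions than their libraries allow (a rank of 32 of 42 untreated and 4 of 7 under ICB, after centring each gene), and the error degrees of freedom were scaled down to match. Library codes run from 5 to 42 for 11 DP, 10 SP and all 9 spleen libraries, from 46 to 61 for 2 DP, 1 SP and 7 DN libraries, and from 72 to 75 for 3 DN libraries, both of week 1 among them; what the codes stand for is not stated. DN week 4 replicates 1 and 2 lay unusually close, with a median absolute difference of 0.0191 over genes, where the next closest untreated pair had 0.0882. Under ICB, DP replicates 1 and 2 (0.0390) and the DN pair (0.0599) were also closer than 0.0882, and the other pairs ran from 0.125 to 0.167. These close pairs enter the errors and p-values of the ICB tests. Itgae, which encodes the CD103 used in the sort, was higher in DP than in DN by 2.82 and also higher in the CD103-negative SP cells than in DN, by 1.71 (adjusted p = 0.000583). All 11 T-cell identity genes looked for, Cd8a and Cd3e among them, were in both tables.

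The mean of the members, each centred on its own mean over the table, ordered the 15 untreated groups from DN of week 2 at 0.51 ± 0.04 (SD, n = 3) and DP of week 2 at 0.43 ± 0.15 (n = 4) to spleen EM at -0.80 ± 0.02 (n = 3). DN of week 6 (0.19), DP of week 4 (0.18), DN of week 1 (0.17), SP of weeks 1, 2 and 4 (0.14, 0.13 and 0.12) and DN of week 4 (0.09) followed week 2 and did not differ beyond the spread of their own libraries. DP of week 6 (0.04), spleen CM (-0.07), SP of week 6 (-0.28), DP of week 1 (-0.40) and naive cells (-0.44) had lower means. The libraries of DP of week 6 (-0.03 to 0.11) and spleen CM (-0.13 to -0.01) still overlapped those of SP of week 4 (-0.11 and 0.35). Of the tumor groups, DP of week 1 was the lowest, and its 3 libraries at -0.30, -0.45 and -0.44 lay below every other tumor library. In each SP group of weeks 1, 2 and 4, 1 library stood well above the rest: 0.45 beside 0.002 and -0.04 at week 1, 0.39 beside -0.05 and 0.06 at week 2, and 0.35 beside -0.11 at week 4. Under ICB the order was DP at 0.23 ± 0.02, SP at -0.002 ± 0.02 and DN at -0.34 ± 0.01 (SD, n = 3, 3 and 2), with no overlap between the groups. These means are descriptions and were not tested.

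**Figure D1:**
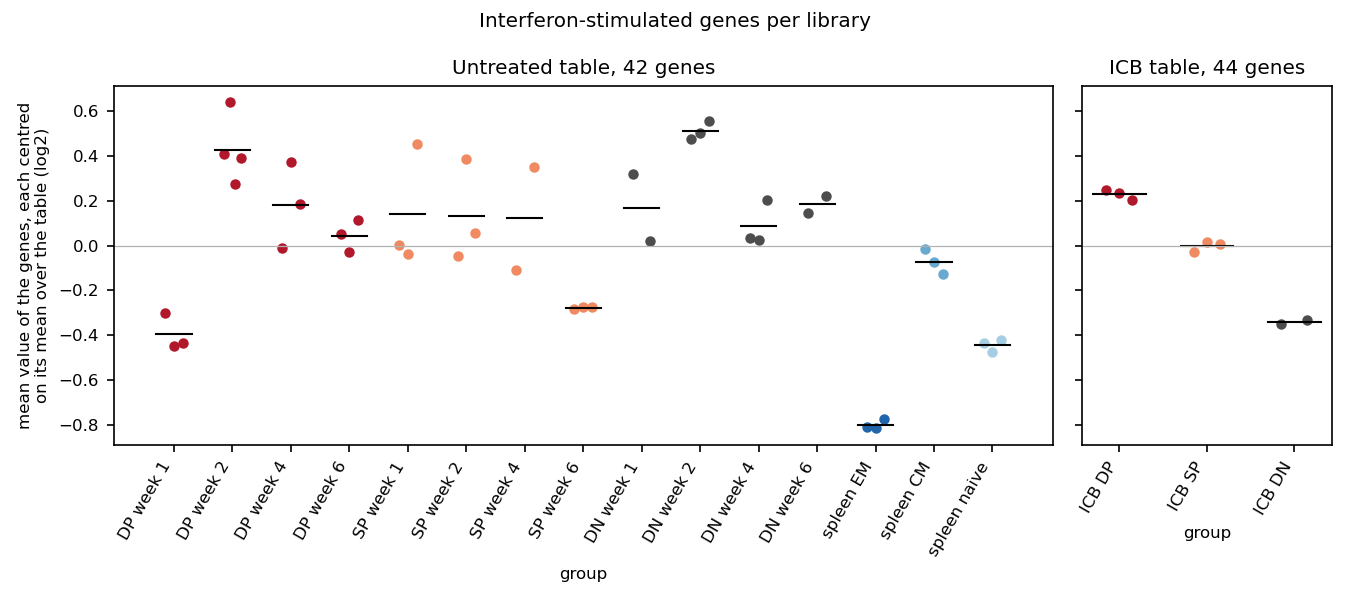
Mean centred value of the interferon-stimulated genes in each library (y axis, log units), by group; points are libraries and bars are group means, and the 2 tables are centred apart. The 3 DP libraries of week 1 sit between -0.45 and -0.30, and the 3 spleen EM libraries between -0.82 and -0.77.

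**Figure D2:**
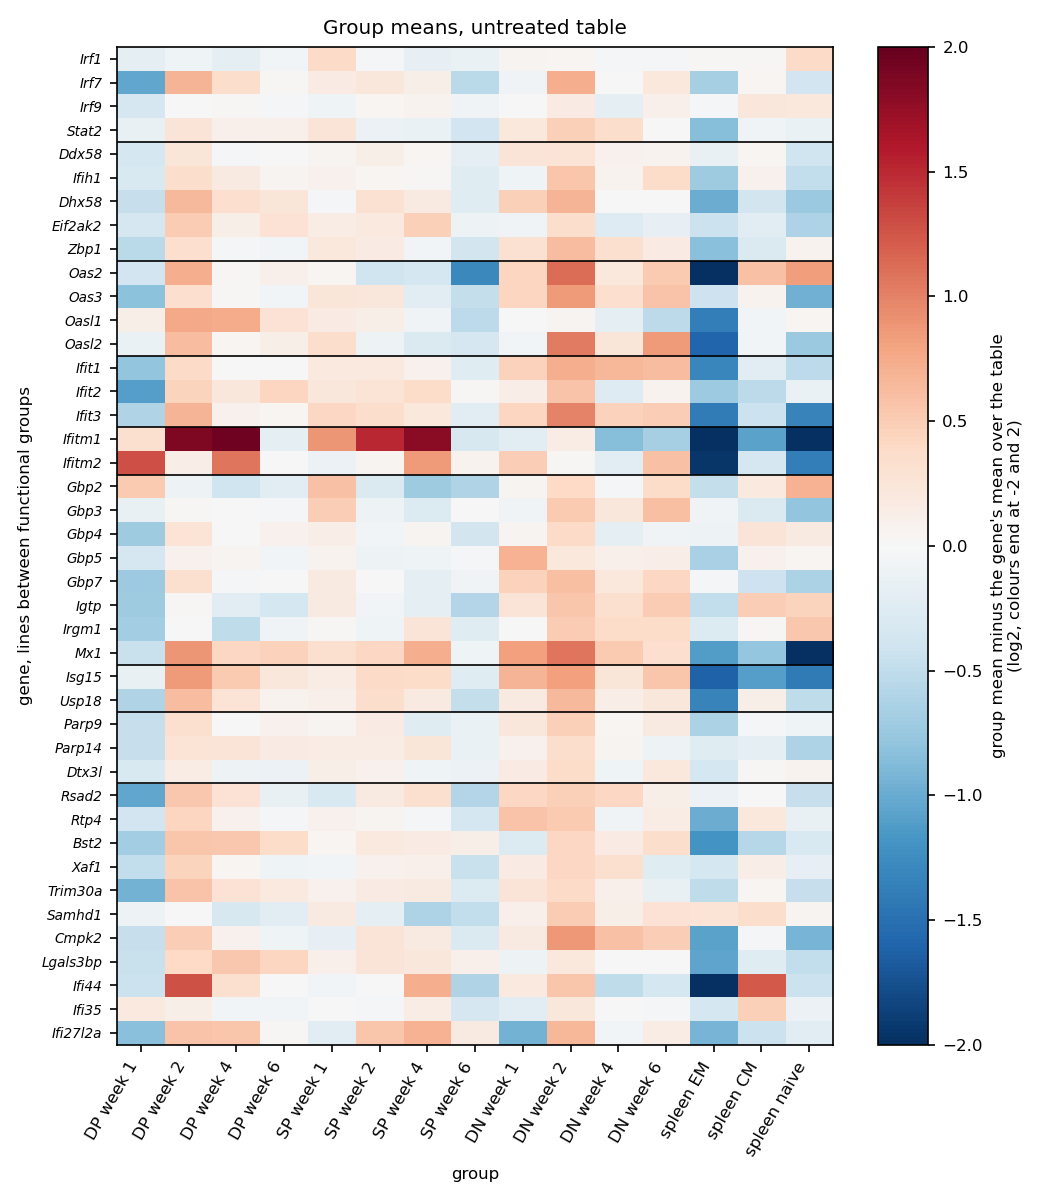
Group mean minus the mean of the gene over all untreated libraries (colour, log units, ending at 2 in either direction) for the 42 measured genes (down) in the 15 untreated groups (across). Most genes are low together in spleen EM, whose mean is -0.80, and high together in DN and DP of week 2, whose means are 0.51 and 0.43.

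Interferon-stimulated genes were lower in DP than in DN cells of untreated tumors for 14 of the 42 measured members and higher for 2, with the weeks weighted equally and an adjusted p below 0.05 in limma, a linear model that shares variance between genes, as the threshold. Over all genes, 10.7% were lower and 8.81% higher. The median member difference was -0.21, beside -0.01 over all genes. The GTPases of the GBP, IRG and Mx families, which act in defence against intracellular pathogens, held 6 of the 14 lower members from 8 measured. The regulators Irf1, Irf7, Irf9 and Stat2 held none.

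Igtp (Irgm3), an immunity-related GTPase of vacuole membranes, had values of 2.59, 3.22 and 3.54 (lowest, median, highest) in 13 DP libraries, against 3.61, 3.81 and 4.05 in 10 DN libraries. Every DP library thus lay below every DN library, which held for no other member and for 0.464% of all genes. The difference was -0.73 ± 0.08 (SE, adjusted p = 5.17e-06), and it was -0.98, -0.53, -0.56 and -0.87 at weeks 1, 2, 4 and 6. Ifit1, which binds viral RNA lacking a host cap, had -0.46, 1.05 and 1.63 in DP against 1.14, 1.63 and 1.96 in DN, a difference of -0.72 (adjusted p = 0.00183). Its groups overlapped, as did those of its relative Ifit3 at 1.43, 2.25 and 2.96 in DP against 2.50, 2.62 and 3.26 in DN, lower by -0.54 (adjusted p = 0.00194). Ifit3 reads may be split with its near-identical copy Ifit3b, and Igtp overlaps Irgm2 in the genome. Oas3, which makes the adenylate chains that switch on RNase L, had 8.39, 9.54 and 10.3 in DP against 9.85, 10.1 and 10.6 in DN, and fell by 0.67 (adjusted p = 0.00015). The GTPases Irgm1 and Gbp7 fell by 0.64 and 0.53 (adjusted p = 0.00152 and 0.000109).

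The 2 higher members were Ifitm1 and Oasl1. Ifitm1, a membrane protein that blocks entry of viruses, had 11.6, 13.5 and 14.5 in DP against 10.7, 11.6 and 12.7 in DN, which overlapped, and rose by 1.38 ± 0.24 (SE, adjusted p = 0.000428). Its weekly differences were 0.55, 1.71, 2.80 and 0.47, and were thus greatest in the middle weeks. Oasl1, which in mice restrains translation of Irf7, rose by 0.64 (adjusted p = 0.0248). Isg15 itself, a ubiquitin-like protein attached to other proteins, had 1.48, 2.40 and 2.95 in DP against 2.05, 2.61 and 3.07 in DN, and its difference of -0.21 did not pass (adjusted p = 0.405). Nor did those of Irf7 at -0.21 (adjusted p = 0.189), Irf1 at -0.13 (0.354), Stat2 at -0.19 (0.227), Gbp2 at -0.25 (0.14) and Bst2 at 0.02 (0.909).

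Of 16 receptor and signalling genes measured outside the set, 6 were lower in DP than in DN and 3 higher. Ifng, the cytokine itself, was lower by -0.71 (adjusted p = 0.0046) and its receptor chain Ifngr1 by -0.59 (0.000297), and the lower genes also included Jak1, Irf2 and Irf3. Ifnar1 was higher by 0.20 (0.0189), as were the myeloid and lymphoid regulator Irf8 and the phosphatase Ptpn6. Markers of other cells moved too: 3 of 8 myeloid and 2 of 6 epithelial genes were higher and 6 of 11 T-cell identity genes were lower in DP, and their part in the result was not tested. In sorted bulk samples, fewer cells of a type and less RNA per cell cannot be told apart. The run of library codes nearly separates DP from DN. With a term for it, 1 member, Igtp, was called in place of 16 (1.88% of all genes in either direction). Codes 46 to 61 hold only 1 DP library of week 2 and 1 of week 6, so no count from them is set beside 16. Without week 1 the count was 18 (34.3%), with 13 lower and 5 higher, and the median difference -0.07.

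SP cells, too, had lower values than DN cells, for 16 of 42 members, with 2 higher and a median of -0.25 beside 0.03 over all genes. The background was 19.4% of all genes called in either direction, 8.32% lower and 1165 of 10560 genes higher. Oas2, an RNase L activator like Oas3, had 8.31, 9.06 and 10.4 in 11 SP libraries against 9.77, 10.2 and 11.1 in 10 DN libraries, and fell by 1.07 ± 0.23 (SE, adjusted p = 0.00244). The groups overlapped for this gene and for all other members. Oasl2 fell by 0.61 (adjusted p = 0.02) and Oas3 by 0.60 (0.00093), so 3 of 4 OAS genes were lower. In the GTPases 6 of 8 were lower, among them Igtp by -0.57 (0.000146) and Gbp2 by -0.45 (0.0124). Ifit1 (-0.57, adjusted p = 0.015), Ifit3 (-0.40, 0.0221), Cmpk2, a mitochondrial nucleotide kinase (-0.54, 0.00498), and the signal transducer Stat2 (-0.36, 0.0265) were lower as well. Ifitm1 rose by 1.37 (0.000871) and Ifi27l2a by 0.36 (0.0291), while Isg15 at -0.41 (0.0995), Irf7 at -0.22 (0.176), Bst2 at -0.04 (0.858) and Irf1 at 0.01 (0.951) did not pass. Among signalling genes Ifnar2, Ifngr1 and Irf3 were lower and Ifnar1, Irf8 and Ptpn6 higher. DP and SP share the DN libraries here. Of markers of other cells, 2 of 6 epithelial and 1 of 8 myeloid genes were higher in SP, as were 4 of 11 T-cell identity genes, and their part was not tested. The run term left 0 members called in limma (1.10% of all genes called), with 8 at an unadjusted p below 0.05. Codes 46 to 61 hold only 1 SP library, of week 6, so no count is given from them.

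DP and SP cells were not told apart by any member over the 4 weeks: 0 of 42 passed in limma in either direction, 6 had an unadjusted p below 0.05, and the lowest adjusted p was 0.111, for Oas2 at 0.62. Over all genes 0.767% were higher and 2.72% lower in DP. The weekly member medians were -0.54, 0.26, 0.09 and 0.30, and 2, 40, 24 and 37 of the 42 members were higher in DP at weeks 1, 2, 4 and 6. Week 1 thus ran opposite to the later weeks, a difference that was not tested for these subsets. Without week 1, 9 members were higher in DP and none lower (1.88% and 4.09% of all genes), with a median of 0.21: Irf7, Stat2, Oas2, Oasl1, Dhx58, Gbp4, Samhd1, Trim30a and Lgals3bp. Ifng (-1.05, adjusted p = 0.000908) and the receptor inhibitor Socs1 (-0.36, 0.0324) were lower in DP over all weeks, as were 9 of 11 T-cell identity genes.

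The difference between DP and DN cells at week 1 itself differed from that of later weeks. Member medians of DP minus DN were -0.64 at week 1 and -0.12, -0.05 and -0.17 at weeks 2, 4 and 6, with 36, 31, 23 and 28 of 42 members lower. A test of week 1 against the mean of weeks 2, 4 and 6 called 14 members lower at week 1 and 1 higher, beside 11.4% and 14.3% of all genes; the median was -0.61, beside 0.05. Ifit2, an RNA-binding relative of Ifit1, had 11.04, 10.07 and 9.97 in DP of week 1 against 11.88 and 11.30 in DN, without overlap. Its DP minus DN difference was -1.23 at week 1 and -0.12, 0.47 and 0.35 later, an interaction of -1.47 ± 0.38 (SE, adjusted p = 0.00717). Trim30a, a mouse TRIM protein, had 4.67, 4.79 and 4.83 in DP of week 1 against 6.12 and 5.83 in DN, again apart. It differed by -1.21 at week 1 and by 0.18, 0.18 and 0.34 later, and its interaction of -1.45 (adjusted p = 5.11e-05) had the lowest p of the members. Mx1, a dynamin-like GTPase against influenza virus, had 12.61, 12.61 and 12.59 in DP against 13.81 and 13.91 in DN at week 1, and an interaction of -1.20 (adjusted p = 0.00187).

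Rsad2 (viperin, which makes a chain-terminating nucleotide), the RNA helicase Dhx58 (LGP2) and the factor Irf7 had interactions of -1.35, -1.11 and -1.002 (adjusted p = 0.027, 0.0103 and 0.00866). Irf7 had 7.16, 7.01 and 7.26 in DP of week 1 against 8.20 and 8.02 in DN, and no DP library of a later week was below 8.05. Gbp2, a target of interferon gamma, was the exception. It had 5.87, 5.91 and 5.29 in DP of week 1 against 5.48 and 4.97 in DN, which overlapped, and differed by 0.47 at week 1 and by -0.50, -0.36 and -0.59 later (interaction 0.95, adjusted p = 0.0158). Isg15 (-0.84, 0.125), Ifit3 (-0.65, 0.0891), Bst2 (-0.61, 0.107), Ifitm1 (-1.11, 0.174), Stat2 (-0.24, 0.529) and Irf1 (-0.14, 0.693) did not pass. Of 16 signalling genes 9 had a lower difference at week 1, among them Ifng at -2.06 (adjusted p = 0.000832), Irf8 at -1.41 (0.00227), Ifnar2 at -1.27 (0.00391) and Ifngr1 at -0.93 (0.00735).

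The DP libraries of week 1 also carried the highest mean values of epithelial markers in the untreated table (2.72, 3.05 and 2.21, against -1.18 and -0.92 in DN of week 1) and the lowest of T-cell identity genes (-0.68, -0.68 and -0.67, against -0.22 and 0.09 in DN). All 6 epithelial markers were higher in them than in DN and all 11 T-cell identity genes lower, by medians of 4.67 and -0.68. All 8 myeloid and all 3 stromal markers were higher too, by medians of 0.82 and 0.95, and so was the 1 erythroid gene, by 3.17. The part of these markers in the result was not tested. SP libraries of week 1 had lower epithelial means than DP of week 1, at 1.70 to 2.12. Their T-cell identity means were higher than in DP, at -0.08, -0.0003 and -0.06. Member means in these SP libraries were 0.002, -0.04 and 0.45, and the part of the markers was not tested here either. DN of week 1 lies wholly in codes 72 to 75, and a run term left 3 of the 15 members, Trim30a, Gbp4 and Rtp4 (6.24% of all genes). Without DN week 1 replicate 1 the count was 6.

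**Figure D3:**
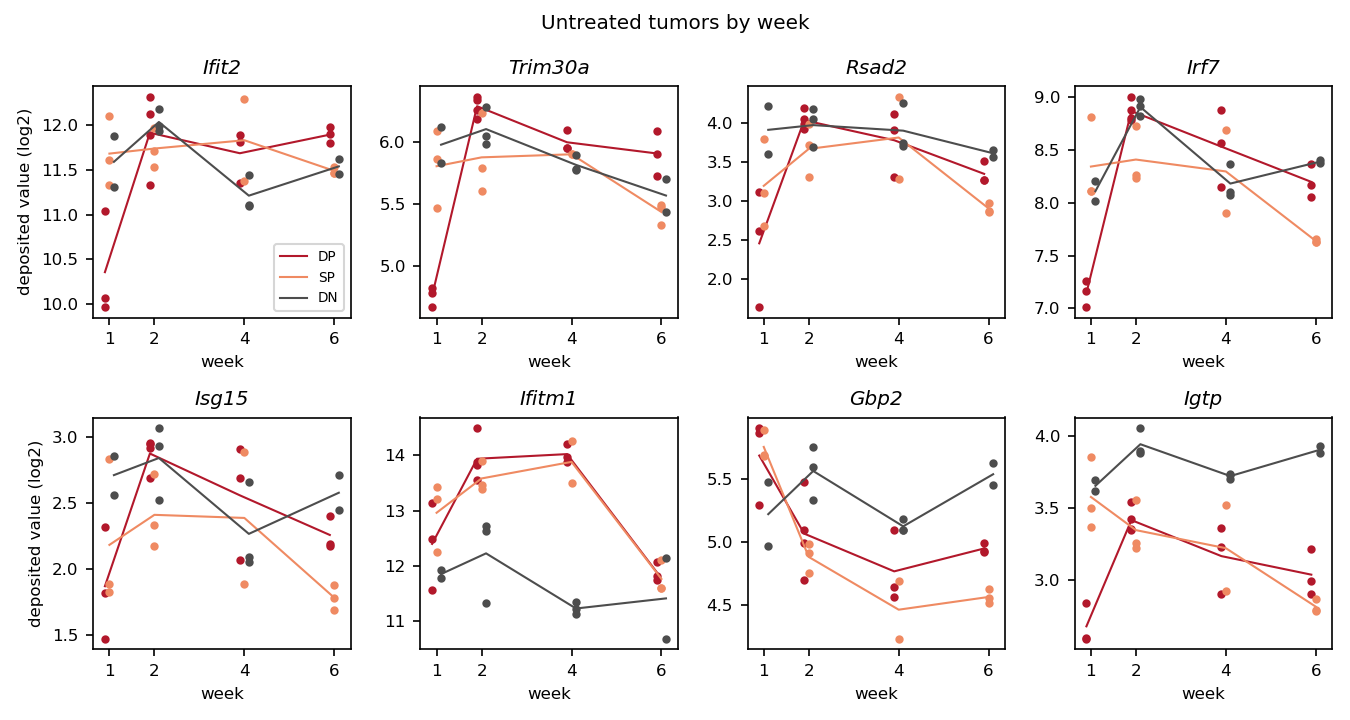
Deposited values (y axis, log units, one scale per panel) of Ifit2, Trim30a, Rsad2, Irf7, Isg15, Ifitm1, Gbp2 and Igtp in untreated tumors at weeks 1, 2, 4 and 6 (x axis) for DP, SP and DN cells; points are libraries and lines join group means. Trim30a in DP lies between 4.67 and 4.83 at week 1 and at 5.72 or above later, while Igtp in DN lies above all DP libraries in each week.

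In DP cells of week 6, 16 of 42 members were higher than at week 1 and 2 lower (all genes: 15.6% higher, 9.37% lower), with a median of 0.45 beside 0.07. Ifit2 had 11.98, 11.90 and 11.80 at week 6 against 11.04, 10.07 and 9.97 at week 1, a rise of 1.54 ± 0.30 (SE, adjusted p = 0.000808). Irf7 had 8.17, 8.05 and 8.37 against 7.16, 7.01 and 7.26 and rose by 1.05 (adjusted p = 0.00102). Bst2 (tetherin, which holds budding virus at the cell surface) had 3.95, 3.77 and 3.92 against 2.97, 2.81 and 2.65 and rose by 1.07 (adjusted p = 0.0011). None of the 3 overlapped between the weeks, nor did 28 of the 42 members in all, 26 of them wholly above and 2 wholly below, where 24.7% and 18.1% of all genes were so. Trim30a rose by 1.14 (adjusted p = 4.19e-05), Mx1 by 0.90 (0.00277), the secreted glycoprotein Lgals3bp by 0.88 (0.000211) and Ifit3 by 0.64 (0.0369). Ifitm2 fell by 1.29 (0.0166) and Gbp2 by 0.74 (0.0174), while Isg15 at 0.39 (0.394), Stat2 at 0.24 (0.403), Irf1 at 0.14 (0.622) and Ifitm1 at -0.52 (0.45) did not pass.

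Of the 16 signalling genes measured in DP cells, 9 were higher at week 6 and none lower, with Ifng up by 1.96 (adjusted p = 0.000144), the feedback inhibitor Socs1 by 1.28 (4.1e-05) and Irf8 by 1.11 (0.00222). Epithelial markers were lower for 4 of 6 (median -2.34) and T-cell identity genes higher for 6 of 11 (median 0.48), and their part was not tested. In SP cells 0 members were higher and 4 lower at week 6 (all genes: 1.34% and 1.37%), with a median of -0.39 beside 0.02. Gbp2 had 4.63, 4.51 and 4.55 in SP of week 6 against 5.69, 5.69 and 5.89 of week 1, without overlap, and fell by 1.19 (adjusted p = 0.00682). Igtp fell by 0.76 (0.0142), Samhd1, which breaks down nucleotides, by 0.66 (0.00367) and the nucleic acid sensor Zbp1 by 0.58 (0.0196). Epithelial markers were lower in SP of week 6 for 3 of 6 (median -1.61) and T-cell identity genes higher for 2 of 11 (median 0.34), while 0 of 8 myeloid markers passed (median 0.58); their part was not tested. Without SP week 1 replicate 3 the count was 2. In DN cells 2 members were higher and none lower (4.98% and 0.805%): Ifi27l2a, with 0.97 and 1.20 at week 6 against -0.31 and 0.29 at week 1, rose by 1.10 (0.0134), and Gbp3 rose by 0.68 (0.0411). The count was 0 or 1 when any of the 4 libraries was left out and 0 with the run term or with only these groups in the fit. Epithelial markers were higher in DN of week 6 for 4 of 6 (median 3.30) and myeloid for 2 of 8 (median 0.94), and the erythroid gene differed by 3.09 without passing; their part was not tested. The difference between the 3 subsets in their change from week 1 to week 6 was not tested.

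From week 2 to week 6 hardly any member passed in any subset. In DP cells Ifitm1, with 12.07, 11.75 and 11.82 at week 6 against 13.88, 14.50, 13.55 and 13.83 at week 2, fell by 2.06 ± 0.44 (SE, adjusted p = 0.0483; 0.0473% of all genes were lower), and 18 members had an unadjusted p below 0.05. The call was lost in 6 of the 7 fits that left out 1 library. In SP and DN cells 0 passed in limma (0.644% and 0.720% of all genes in either direction), with 17 and 11 at an unadjusted p below 0.05. Member medians were -0.35 in DP, -0.31 in SP and -0.33 in DN, beside 0.06, 0.05 and 0.05 over all genes. Every week 6 library was below every week 2 library for 21, 26 and 31 of 42 members in DP, SP and DN, where 9.60%, 10.2% and 14.6% of all genes were so, and no member was wholly above. Myeloid markers ran the other way, with medians of 1.05, 1.52 and 0.84, and their part was not tested.

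In the spleen, EM cells had the lowest mean of the members among the 15 untreated groups. Against naive cells, 17 of 42 members were lower in EM and 4 higher (all genes: 12.0% and 12.6%), with a median of -0.32 beside -0.02. Oas2 had 7.43, 7.91 and 7.23 in EM against 10.57, 10.24 and 10.81 in naive cells, and fell by 3.01 ± 0.42 (SE, adjusted p = 1.48e-05). Ifi44, an interferon-induced gene, had 15.97, 16.64 and 15.67 against 17.52, 18.21 and 17.63 and fell by 1.69 (0.0237). The groups were apart for both. Oasl1 fell by 1.42 (adjusted p = 0.00811), Gbp2 by 1.16 (0.000486), Igtp by 0.92 (0.000222), Zbp1 by 0.90 (3.03e-05), Bst2 by 0.89 (0.00442) and Stat2 by 0.71 (0.0121). Mx1 ran the other way, with 11.95, 11.84 and 12.01 in EM against 9.74, 10.05 and 9.73 in naive cells, a rise of 2.09 (adjusted p = 1.24e-07), and Gbp3, Gbp7 and Parp14, an ADP-ribosyltransferase, rose by 0.72, 0.60 and 0.38 (0.00176, 0.0075 and 0.0446). Isg15 at -0.20 (0.685), Ifit3 at -0.06 (0.872), Irf7 at -0.27 (0.377), Irf1 at -0.36 (0.17) and Ifitm1 at 1.12 (0.0872) did not pass. Of markers of other cells in EM, 1 of 3 B-cell genes (median 1.45) and 1 of 2 CD4 and regulatory T-cell genes (median 1.28) were higher. Of 8 myeloid genes 2 were lower and 1 higher (median -0.57), and 2 of 6 epithelial genes were lower (median -0.74). Of 3 plasmacytoid dendritic genes 1 passed in each direction. Ccr9, listed there, had 5.64, 7.20 and 5.11 in EM against 10.16, 9.18 and 9.99 in naive cells. Such lists do not show which cells carried the RNA, and their part was not tested.

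CM cells had 10 members higher than naive cells and 0 lower (10.1% and 8.70% of all genes), with a median of 0.31 beside -0.02. Mx1 had 12.19, 12.26 and 12.35 in CM against 9.74, 10.05 and 9.73 in naive cells and rose by 2.43 (adjusted p = 3.09e-08). Ifitm1 had 10.73, 11.06 and 11.24 against 8.45, 9.04 and 8.81 and rose by 2.24 (0.00189). Neither overlapped, and Ifi44, Oas3, Ifit3 and Cmpk2 rose by 1.65, 1.03, 0.91 and 0.90 (0.034, 0.00133, 0.00535 and 0.00826). Isg15 (0.32, 0.528), Irf7 (0.42, 0.176), Irf1 (-0.36, 0.194), Stat2 (0.06, 0.886), Bst2 (-0.27, 0.423) and Gbp2 (-0.50, 0.123) did not pass. Among signalling genes Socs3 was lower than in naive cells in both EM and CM, while Ifng was higher by 3.94 (adjusted p = 7.46e-09) in EM and 2.06 (9.86e-05) in CM. Of markers of other cells in CM, 2 of 6 epithelial genes (median 0.80) and 1 of 3 B-cell genes (median 0.35) were higher, 1 of 3 stromal genes was lower, 1 plasmacytoid dendritic gene and 1 CD4 or regulatory T-cell gene passed in each direction and 0 of 8 myeloid genes passed (median 0.38); their part was not tested. Both comparisons share the naive libraries. Without naive replicate 3 or CM replicate 2 the CM count was 5, and without naive replicate 1 it was 6.

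Set directly against each other, EM and CM cells differed in 21 of 42 members, all lower in EM (7.19% of all genes lower, 8.21% higher), with a median of -0.61 beside 0.01. Every EM library lay below every CM library for 32 members, as for 24.5% of all genes. Ifi44 had 15.97, 16.64 and 15.67 in EM against 19.07, 19.47 and 19.79 in CM, a fall of 3.35 ± 0.53 (SE, adjusted p = 0.000366), the largest among the members. Oas2 fell by 2.77 (0.000246), Ifitm2 by 1.61 (0.00689), Oasl2 by 1.53 (0.00362), the ISG15 protease Usp18 by 1.45 (0.000598) and Oasl1 by 1.33 (0.0197). Ifit3 (-0.97, 0.00495), Stat2 (-0.77, 0.0123), Irf7 (-0.70, 0.0295) and Gbp2 (-0.67, 0.0445) were lower too. Irf1 did not pass (-0.00, adjusted p = 0.998), nor did Isg15 (-0.52, 0.281), Bst2 (-0.62, 0.0563) and Ifitm1 (-1.12, 0.11). Of 8 myeloid markers 3 were lower and 1 higher in EM, with a median of -0.98, and their part was not tested.

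**Figure D4:**
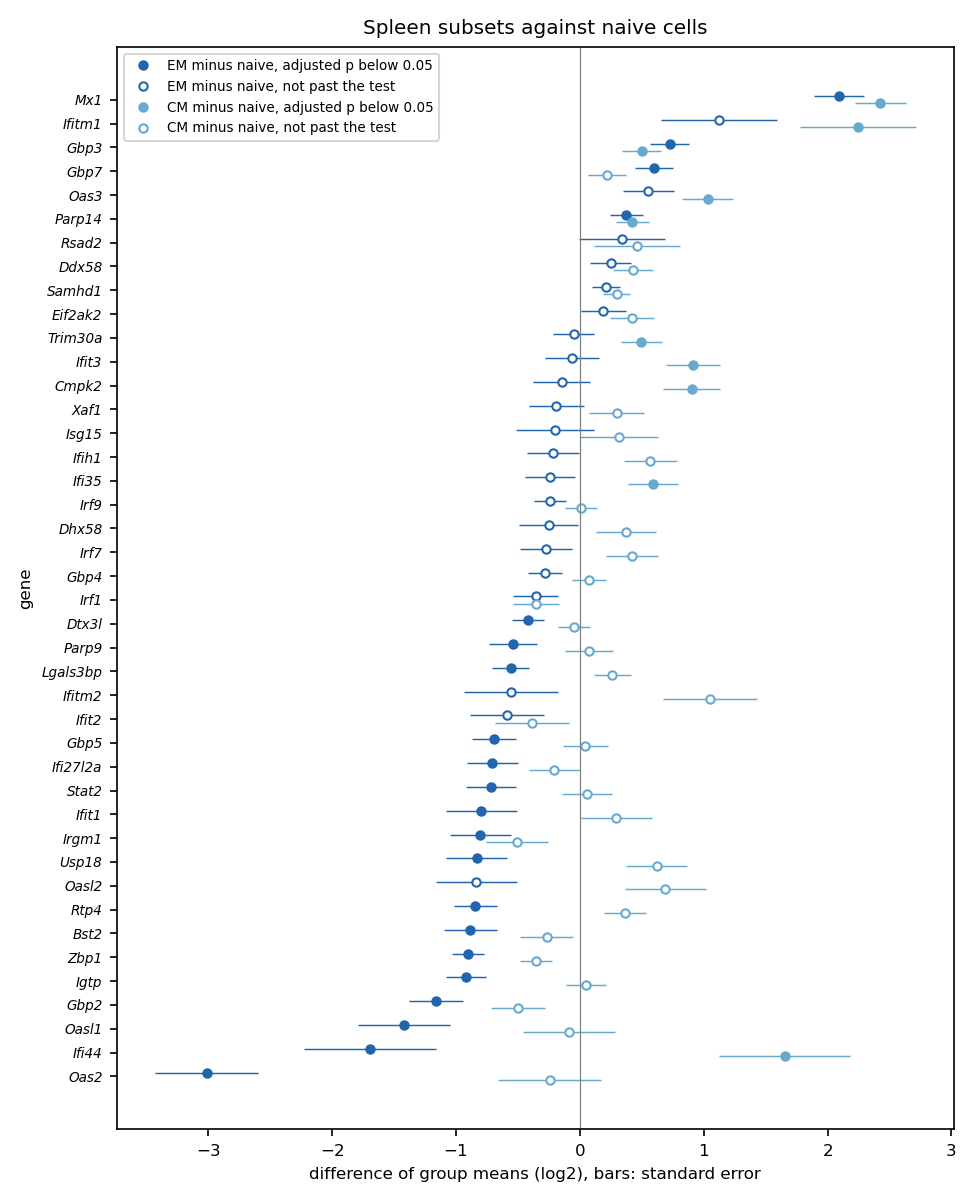
Difference from naive spleen cells (x axis, log units, bars are standard errors) of each of the 42 measured genes (down) for EM and CM cells; filled points have an adjusted p below 0.05. Mx1 is higher by 2.09 in EM and 2.43 in CM, while Oas2 is lower by -3.01 in EM and Ifi44 runs opposite ways, at -1.69 in EM and 1.65 in CM.

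All 3 tumor subsets had higher interferon-stimulated values than spleen EM cells, and all these comparisons share the same 3 EM libraries. EM had the lowest member mean of all untreated groups, and no tumor subset was tested against CM or naive cells. The member mean of spleen CM (-0.07) lay above those of SP of week 6 (-0.28) and DP of week 1 (-0.40). In DP cells 27 of 42 members were higher and 1 lower (13.8% and 16.0% of all genes), in SP cells 28 and 1 (15.9% and 13.5%) and in DN cells 34 and 0 (10.2% and 10.5%). Member medians were 0.69, 0.66 and 0.91, beside -0.03, 0.01 and -0.02 over all genes. Every tumor library was above every EM library for 17 members in DP and 31 in DN (5.77% and 6.22% of all genes). In SP this held for 27 members and for 1160 of 10560 genes (21.4% of all genes did not overlap in either direction). Isg15 ran from 1.48 to 2.95 in 13 DP libraries, from 1.69 to 2.89 in 11 SP libraries and from 2.05 to 3.07 in 10 DN libraries, against 0.34, 0.62 and 0.25 in EM. It was higher by 1.99, 1.79 and 2.19 (adjusted p = 5.63e-06, 2.77e-05 and 7.78e-06), with no overlap.

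All 3 IFIT and both IFITM genes were higher in each subset, as were 3, 3 and 4 of 4 OAS genes in DP, SP and DN. Ifit3 was higher by 1.45, 1.60 and 2.00 (adjusted p = 2.95e-06, 1.6e-06 and 2.47e-07), Oas2 by 2.30, 1.68 and 2.75 (2.6e-05, 0.000774 and 1.54e-05) and Ifitm1 by 3.17, 3.16 and 1.79 (2.51e-06, 3.89e-06 and 0.00248). Ifitm2 and Ifi44 were higher by 2.57 and 2.41 in DP, 2.16 and 2.14 in SP and 2.16 and 2.09 in DN. The GTPases were higher for 2, 2 and 7 of 8. Bst2 was higher by 1.39, 1.32 and 1.36, Stat2 by 0.92, 0.75 and 1.11 and Irf7 by 0.66, 0.65 and 0.87, each past the threshold in all 3. Gbp2 passed in DN (0.66, adjusted p = 0.0118) and not in DP or SP, and Irf1 in none (-0.15, -0.01 and -0.02). Samhd1 was the 1 lower member, by -0.43 (0.00103) in DP and -0.55 (0.000133) in SP.

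Among signalling genes the inhibitors Socs1 (0.98, 1.35 and 1.10) and Socs3 (1.34, 1.05 and 1.06) and the receptor chain Ifngr1 (0.48, 0.61 and 1.06) were higher in DP, SP and DN, and Jak1 and Pias1 were lower in all 3. Epithelial markers were higher for 5 of 6 in each subset (medians 3.70, 3.32 and 2.60) and all 3 B-cell markers measured were lower, and their part was not tested. All spleen libraries lie in codes 5 to 42, and with the run term the DN count was 18 in place of 34 (2.49% of all genes). The tumors' weeks and the spleens' time of collection cannot be matched, since the labels give no week for the spleens.

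In tumors given ICB, interferon-stimulated genes were higher in DP than in DN cells for 25 of 44 members and lower for 0 (4.47% and 3.02% of all genes), with a median of 0.47 beside 0.01. The 3 IFITM genes differed most. Ifitm1 had 16.15, 16.13 and 16.08 in DP against 13.94 and 13.97 in DN, Ifitm2 had 13.24, 13.26 and 13.27 against 11.21 and 11.14, and Ifitm3 had 10.73, 10.69 and 10.61 against 8.47 and 8.57. All were apart, and they rose by 2.16 ± 0.07, 2.09 ± 0.11 and 2.16 ± 0.14 (SE, adjusted p = 0.00275, 0.0038 and 0.00435). The 3 genes are neighbours on chromosome 7 (GRCm38), Ifitm2 at 140954837 to 140955987, Ifitm1 at 140967221 to 140969825 and Ifitm3 at 141009586 to 141010770. Ifi44 rose by 1.76 (0.048) and Oas1a by 0.99 (0.0131). Isg15 had 10.91, 10.94 and 11.005 in DP against 10.11 and 10.06 in DN and rose by 0.87 (adjusted p = 0.0137).

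By role, 3 of 3 IFIT, 4 of 5 sensor, 2 of 5 OAS, 3 of 8 GTPase and 2 of 4 regulator genes were higher in DP under ICB. Ifit3 rose by 0.45 (adjusted p = 0.0322), Irf7 by 0.49 (0.0223), Stat2 by 0.66 (0.0199) and Bst2 by 0.72 (0.0396), while Gbp2 at 0.30 (0.116) and Irf1 at -0.19 (0.265) did not pass. The groups did not overlap for 41 of 44 members, 38 above and 3 below, but 37.5% and 35.6% of all genes were so in these 5 libraries. Igtp, wholly below DN in untreated DP cells, was wholly above it here, with 11.33, 11.32 and 11.27 in DP against 10.93 and 10.93 in DN, a difference of 0.38. Among signalling genes Socs3 fell by 1.18 (adjusted p = 0.0301) and Jak1 by 0.46 (0.0213). Myeloid markers were higher in DP for 9 of 11 (median 2.19), stromal for 2 of 5 (median 2.05) and epithelial for 1 of 6 (median 0.96), and their part was not tested.

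SP cells under ICB had 9 members higher than DN cells and 0 lower (2.47% and 1.36% of all genes), with a median of 0.30 beside 0.04. Ifitm3 had 9.82, 10.11 and 9.81 in SP against 8.47 and 8.57 in DN, without overlap, and rose by 1.39 (adjusted p = 0.0165). Ifitm2, Ifitm1, Oas1a, Lgals3bp and Isg15 rose by 1.27, 1.21, 0.74, 0.68 and 0.65 (0.0146, 0.00794, 0.0312, 0.0154 and 0.0328). Ifit3 (0.33, 0.0834), Stat2 (0.45, 0.0582), Bst2 (0.39, 0.172), Irf7 (0.12, 0.352), Gbp2 (0.13, 0.458) and Irf1 (-0.32, 0.136) did not pass. Stromal markers were higher in SP for 2 of 5 (median 1.85), epithelial for 1 of 6 (median 1.48) and T-cell identity genes for 3 of 11 (median 0.31), while 0 of 11 myeloid markers passed (median 1.04); their part was not tested. The count was 4 without DN replicate 1 or 2, 16 without SP replicate 1 and 18 without SP replicate 2. Between DP and SP 1 member passed (0.00743% of all genes higher, 0.0297% lower): Ifitm1, with 16.15, 16.13 and 16.08 in DP against 15.13, 15.20 and 15.17 in SP, rose by 0.95 (0.0432). The member median was 0.18, beside -0.02. All ICB calls were lost without limma's trend option, which lets the shared variance depend on the level of a gene, where the lowest adjusted p was 0.0548, 0.0994 and 0.259 in the 3 comparisons and 30, 22 and 10 members had an unadjusted p below 0.05. Without DN replicate 1 or 2 the DP minus DN count was 8 or 10. ICB and untreated tumors stand in tables normalised apart and at other times, so no level was compared between them.

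**Figure D5:**
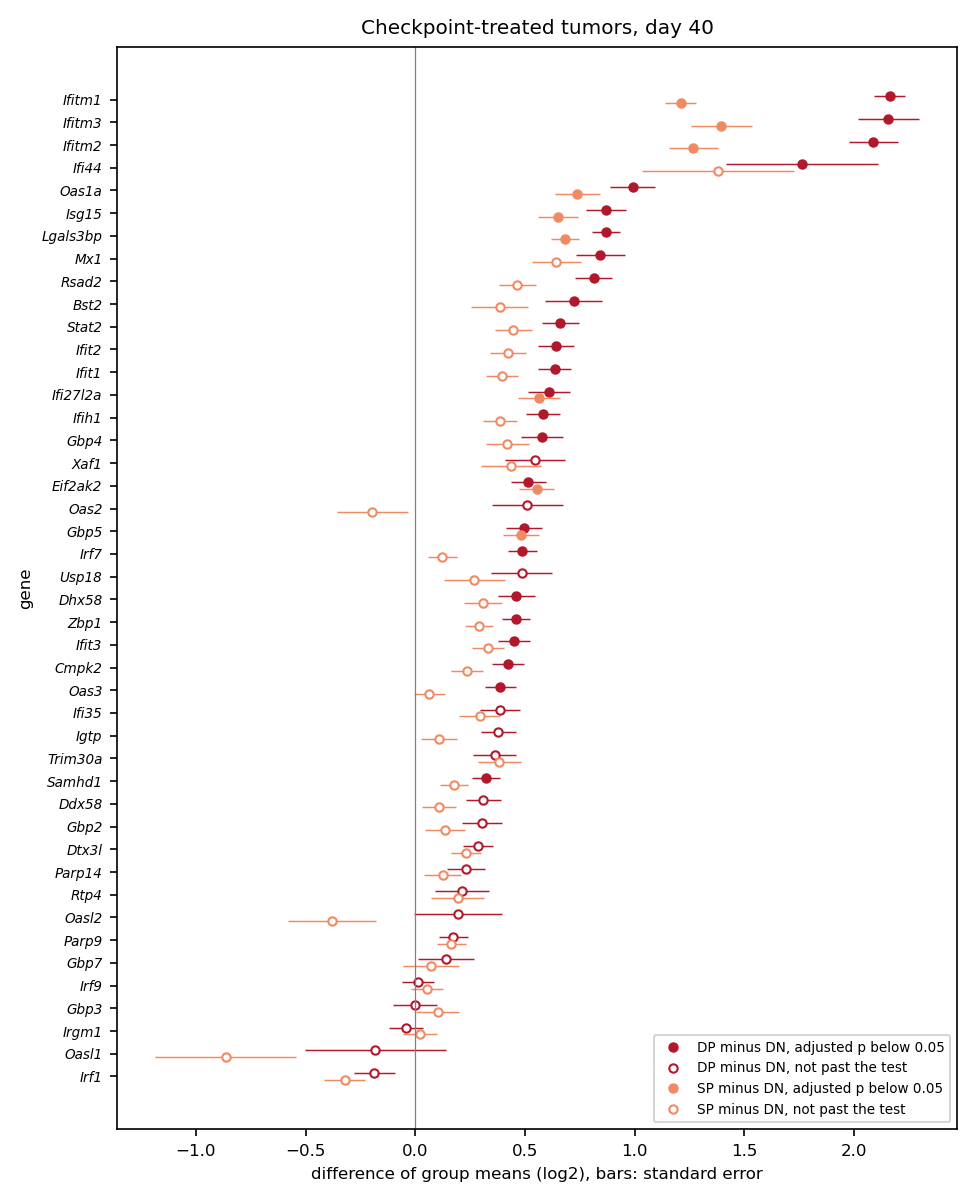
Difference from DN cells (x axis, log units, bars are standard errors) of each of the 44 genes (down) for DP and SP cells of ICB-treated tumors; filled points have an adjusted p below 0.05. Ifitm1, Ifitm2 and Ifitm3 lie at 2.16, 2.09 and 2.16 in DP and at 1.21, 1.27 and 1.39 in SP.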

How the data were processed

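Sorted mouse CD8+ T cells were profiled by 3′ end RNA sequencing, per the labels' protocols. Per the submitters' processing notes, HISAT2, HTSeq and the build mm10 were used; no versions are given. The deposited values are normalised and were treated as log2 values, though their base is not stated and their range does not settle it; the authors' normalisation is not given in the sources used here, and depth is unknown. The 2 tables were fitted apart, each with all its groups and genes, in limma 3.58.1 (R 4.3.3, statmod 1.5.0) with the trend and robust options. Residual degrees of freedom were multiplied by 0.643 (untreated, residual rank 18 of 28) and 0.4 (ICB, 2 of 5), and the variance was raised to match. P-values were adjusted by Benjamini-Hochberg over all genes of a table, with calls at 0.05; weeks were weighted equally. The procedure was also run on simulated data for DP minus DN in each table, with genes drawn independently and the same loss of rank. Such data cannot show how it behaves under the authors' unknown normalisation.

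The members and lists were chosen with earlier results of these data known. Named are, per comparison, up to 6 called members in each direction, and Isg15, Ifit3, Irf7, Irf1, Stat2, Gbp2, Ifitm1 and Bst2 whether called or not; other names complete a short count or were chosen after their values were seen. Alternatives were unscaled degrees of freedom, quantile normalisation, median rescaling, no trend, a replicate block, a filter on low values (above 0 in 3 libraries, or 2 under ICB), fits of only the groups compared, a term for library codes, omission of week 1 and of each library. Library weights and fits within a run of codes were added after the data were seen. Promoters are RefSeq's (GRCm38.p6) and gene positions GENCODE's (GRCm38).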

Additional observations from a re-analysis of the deposited data

Results flagged for a closer look

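Isg15 in DP cells of week 2 had 2.95, 2.95, 2.91 and 2.69, and replicate 4 stood apart, with a gap of 0.859 of the range of the group. This gap is above Dixon's critical value, and chance gives such a gap in about 1 in 20 groups. Replicate 4 has library code 52, where replicates 1 to 3 have 5, 23 and 35, and the part of the codes was not tested. The DP minus DN difference of 15 members at week 1 differed from the mean of weeks 2, 4 and 6 in limma's interaction test, described in the report. The interactions were -1.47 for Ifit2, -1.45 for Trim30a, -1.35 for Rsad2, -1.20 for Mx1, -1.11 for Dhx58 and -1.002 for Irf7. They were -0.91 for Rtp4, -0.90 for Gbp5, -0.88 for Gbp7, -0.85 for Gbp4, -0.76 for Oas3, -0.73 for Lgals3bp, -0.67 for Parp14, -0.55 for Zbp1 and 0.95 for Gbp2. Igtp had all 3 DP libraries above the 2 DN libraries under ICB, by 0.38, as did 37.5% of all genes. In untreated tumors all 13 DP libraries lay below all 10 DN libraries, by -0.73, as for 0.464% of all genes. The difference between the 2 tables was not tested.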

How the results depend on the processing

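No called member reversed its direction under any alternative; counts of called members are compared here. With unscaled degrees of freedom they were 3 for DP minus SP (0 in the report), 24 for the week 1 interaction (15), 14 for SP week 6 minus 1 (4), 5 for DN week 6 minus 1 (2), 8, 9 and 7 for week 6 minus 2 in DP, SP and DN (1, 0 and 0), 20 for CM minus naive (10), and under ICB 33 for SP minus DN (9) and 24 for DP minus SP (1). Quantile normalisation gave 3, 26, 16 and 6, then 14, 15 and 9, 18, and 30 and 26 in the same order. Median rescaling gave 1 for DN week 6 minus 1, 1 for SP week 6 minus 2, and 25 and 6 for the ICB comparisons of SP with DN and of DP with SP. Fits of only the groups compared gave 2 for DP minus SP, 24 for the interaction, 12 for SP and 0 for DN week 6 minus 1, 12 for DP and 3 for SP week 6 minus 2, 26 for CM minus naive and 19 for ICB SP minus DN. Without the trend option all ICB counts were 0, with the lowest adjusted p given in the report.

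A term for library codes gave 1 for DP minus DN, 0 for SP minus DN, 3 for the interaction, 0 for DN week 6 minus 1 and 18 for DN minus EM. Omission of week 1 gave 9 for DP minus SP. Within codes 5 to 42 the counts were 1 for DP minus SP, 2 and 2 for DP and SP week 6 minus 2 and 16 for CM minus naive. Within codes 46 to 61 the count was 2 for DN week 6 minus 2. DP has 1 library at week 2 and 1 at week 6 there, and SP has 1 at week 6. Their comparisons with DN within these codes are left out. With library weights the interaction had 10. The filter on low values moved no count by over 1.5 times. It left out Ifitm2, whose mean over the untreated libraries was -12.0, so the untreated calls of Ifitm2 were not tested under it. The causes were not tested.

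The labels do not say that replicate numbers pair libraries. In the untreated table deviations of libraries with the same number had a median correlation of 0.00253, and those with other numbers -0.00217. Under ICB the 7 same-number pairs had a median of 0.361, but ran from -0.995 to 0.920, so not every pair was above 0.1. A replicate block gave 16 for DP minus DN, 18 for SP minus DN, 8 for SP week 6 minus 1, 3 for SP week 6 minus 2, 19 for ICB SP minus DN and 2 for ICB DP minus SP.

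With 1 library left out at a time the counts ran from 15 to 17 for DP minus DN, 15 to 21 for SP minus DN, 0 to 1 for DP minus SP (1 without SP week 4 replicate 1 or 2), 6 to 18 for the interaction, 15 to 17, 2 to 5 and 0 to 1 for week 6 minus 1 in DP, SP and DN (SP 2 without week 1 replicate 3), 0 to 1, 0 to 1 and 0 to 0 for week 6 minus 2, 16 to 19 for EM minus naive, 5 to 10 for CM minus naive, 15 to 21 for EM minus CM, 26 to 30, 27 to 30 and 28 to 35 for DP, SP and DN minus EM, and 8 to 30, 4 to 18 and 0 to 1 for ICB DP minus DN, SP minus DN and DP minus SP. Groups of 2 left with 1 library were assumed to vary like the other groups. Without DN week 4 replicate 1, the near copy of replicate 2, DP minus DN had 15, SP minus DN 18, the interaction 15 and DN minus EM 34.

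Scaling moved the balance of all called genes, higher to lower. For DP week 6 minus 1 it was 1647 to 989, 2042 to 2039 with quantile normalisation and 1305 to 1545 with median rescaling, whose all-gene medians were 0.07, -0.01 and -0.04 and member medians 0.45, 0.38 and 0.34. For DN week 6 minus 1 it was 526 to 85, 831 to 930 and 383 to 205, with all-gene medians of 0.12, -0.04 and 0.01 and member medians of 0.01, -0.13 and -0.11. For DP minus SP it was 81 to 287, 565 to 762 and 148 to 252. For week 6 minus 2 it was 21 to 5, 295 to 488 and 45 to 40 in DP, 52 to 16 and 308 to 445 in SP and 56 to 20 and 325 to 520 in DN. Under ICB it was 601 to 407 and 3052 to 3160 for DP minus DN, 332 to 183 and 2470 to 2717 for SP minus DN and 1 to 4, 1680 to 1530 and 76 to 93 for DP minus SP. The unknown normalisation and depth limit every level here, and the 2 libraries of several DN groups limit those comparisons.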
